A study of Mus musculus with 6 samples.

Results

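The Id proteins and the E proteins they bind were followed as 6 genes, Id1, Id2, Id3, Tcf3, Tcf4 and Tcf12, chosen by symbol from a table of 48395 gene symbols. Each symbol had 1 row in every library. Of the 6 libraries, 3 were labelled Hmga2 and 3 were labelled vector. All were made from LSK cells, the lineage-negative, Sca-1-positive, c-Kit-positive bone marrow fraction in which haematopoietic stem cells and their first descendants are found. The marrow of every group came from Mx1Cre; Jak2V617F/+ donors, so the controls carry the activating Jak2 allele too. Mx1Cre is a recombinase driven by an interferon-inducible promoter. The samples are given as strain C57BL/6. The donors had been primed with 5-fluorouracil. Their cells were infected with a lentivirus carrying Hmga2 or with the empty vector, and 1000000 cells were given to each C57BL/6 recipient after 2 doses of 550 cGy. Marrow was collected 32 weeks later. The libraries of a group are described as biological replicates, so p-values between the labels set their difference against the spread between these libraries. The sources used here do not give the share of sorted cells that carried the virus or came from the host. The comparison addresses what extra Hmga2, an architectural chromatin protein, does in Jak2-mutant stem and progenitor cells.

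E proteins are basic helix-loop-helix transcription factors. They pair through the helix-loop-helix and bind DNA at E boxes through the basic stretch next to it, either with each other or with partners such as Tal1. Id proteins have the helix-loop-helix but no basic stretch, so an E protein caught by an Id protein cannot bind DNA. In blood formation, E proteins drive B and T lymphoid programmes, Tal1 with an E protein runs stem cell and erythroid programmes, and the Id genes are classic targets of BMP and TGF-beta signalling through Smad proteins.

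The coding sequences show this difference between the families, and are printed because it defines the members. They are given for every member but Tcf4, each from transcript 201 of its gene, such as Tcf3-201. Other transcripts of these genes were not compared. Each line gives the bases, 5′ to 3′ on the coding strand, that encode 54 residues in GENCODE M21 transcripts. Capitals mark the 42 bases for the 14 residues that form the basic stretch in E proteins, or the residues aligned with it in Id proteins, and lower case marks the 120 bases that follow, in the helix-loop-helix.
Id1: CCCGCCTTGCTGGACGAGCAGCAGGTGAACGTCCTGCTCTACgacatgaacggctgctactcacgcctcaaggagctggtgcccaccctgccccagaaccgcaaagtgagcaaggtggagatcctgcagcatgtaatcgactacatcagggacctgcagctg
Id2: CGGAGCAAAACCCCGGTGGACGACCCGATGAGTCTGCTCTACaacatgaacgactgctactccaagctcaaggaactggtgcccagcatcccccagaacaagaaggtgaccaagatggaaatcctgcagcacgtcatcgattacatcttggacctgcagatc
Id3: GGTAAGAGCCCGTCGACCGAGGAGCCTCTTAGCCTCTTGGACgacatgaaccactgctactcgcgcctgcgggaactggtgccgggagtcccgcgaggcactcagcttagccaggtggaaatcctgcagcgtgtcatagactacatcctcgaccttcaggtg
Tcf3: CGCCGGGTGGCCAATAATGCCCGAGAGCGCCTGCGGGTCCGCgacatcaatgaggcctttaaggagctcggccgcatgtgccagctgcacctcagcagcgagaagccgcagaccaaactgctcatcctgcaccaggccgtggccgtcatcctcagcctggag
Tcf12: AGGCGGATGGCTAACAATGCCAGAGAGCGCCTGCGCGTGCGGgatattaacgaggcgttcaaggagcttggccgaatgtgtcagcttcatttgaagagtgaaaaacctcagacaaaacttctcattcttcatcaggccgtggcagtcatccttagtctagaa
Of the 14 codons in capitals, 6 encode arginine or lysine in Tcf3 and 6 in Tcf12, whereas 0 do in Id1, 2 in Id2 and 1 in Id3. Over the 120 bases in lower case, Id1 and Id2 were identical at 96 bases (80.0%), while Id1 and Id3 and also Id2 and Id3 were identical at 85 bases (70.8%). Tcf3 and Tcf12 were identical at 92 of these bases (76.7%). How reads shared by similar genes were assigned is not given in these sources.

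The stretches lie in coding exons on mm10. Those of Id1 (chr2:152736479-152736640) and Id3 (chr4:136143963-136144124) are on the plus strand. Those of Id2 (chr12:25095780-25095941), Tcf3 (chr10:80412840-80413001) and Tcf12 (chr9:71856318-71856479) are on the minus strand. GENCODE M21 lists no gene whose exons overlap those of any of the 6 genes.

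Total counts per library ran from 30413990 to 35471806 in the libraries labelled Hmga2 and from 24818011 to 31208673 in the vector libraries. Hmga2 itself had 2.63, 6.63 and 5.91 CPM (counts scaled to a common library size of 1000000) in the libraries labelled Hmga2, against 5.96, 5.04 and 7.03 CPM in the vector libraries, so the label was not matched by a higher level of the gene it names. Whether transcripts of the introduced copy were counted for this gene is unknown, and directions below belong to the label. Of the sort markers, Kit ran from 345 to 375 CPM in the libraries labelled Hmga2 and from 248 to 354 CPM in the vector libraries. Ly6a, which encodes Sca-1, ran from 32.2 to 45.5 CPM in the libraries labelled Hmga2 and from 19.3 to 59.1 CPM in the vector libraries. The libraries also differed apart from their label. Igha, the immunoglobulin A heavy chain gene, was above 1000 CPM in Hmga2 replicate 2 and in vector replicates 1 and 3 (2535, 8930 and 5469 CPM), and between 193 and 236 CPM in the others. Summed Y-linked genes were at 192 and 127 CPM in Hmga2 replicates 1 and 3, and between 5.27 and 21.5 CPM in the others.

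None of the 6 genes passed the test between the labels. edgeR's quasi-likelihood test with Benjamini-Hochberg adjustment over 16739 genes called 0 of the 6 at an adjusted p under 0.05, where it called 0% of all genes. At an unadjusted p under 0.05 it marked 2 of the 6, where 5.59% of all genes were marked. Id1 was marked as lower with the Hmga2 label, like 3.36% of all genes, and Tcf4 as higher, like 2.23%. DESeq2 called 0 of the 6, beside 0.324% of all genes, and had the same 2 under an unadjusted p of 0.05. Of the 6, only Id1 (1 gene) had groups with no overlap, where this held for 11.2% of all genes, 5.88% with lower and 5.28% with higher values under the Hmga2 label. The directions were mixed, with 3 genes below and 3 above 0 in log2 fold change (labelled Hmga2 over vector), where 50.4% of all genes were above 0, beside a median of 0.0016 over all genes tested.

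Id1, the Id gene most used as a readout of BMP signalling, was the member whose groups stood apart. It had 1.81, 2.28 and 3.03 CPM in the libraries labelled Hmga2, against 4.44, 3.15 and 5.36 CPM in the vector libraries. All 3 libraries labelled Hmga2 lay below all 3 vector libraries, but the nearest pair, Hmga2 replicate 3 and vector replicate 2, were close together. These 2 values rested on 104 and 82 reads, with exact Poisson 95% intervals from 2.48 to 3.67 CPM and from 2.51 to 3.91 CPM, which overlap. Such intervals cover counting error only.

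The means of Id1 were 2.37 ± 0.616 CPM in the libraries labelled Hmga2 and 4.32 ± 1.11 CPM in the vector libraries (SD, n = 3 each). edgeR put the log2 fold change at -0.86 (standard error 0.29, 95% interval -1.55 to -0.17), a fold of 0.550 with an adjusted p of 0.855. DESeq2 gave an adjusted p of 0.533. Exact two-sided permutation of the labels gave p = 0.1, the smallest p that 3 libraries against 3 allow. Each kind of library is given on its own as values, since each holds 1 library of one label. Among those with Igha above 1000 CPM, Id1 was at 2.28 CPM in 1 library labelled Hmga2 and averaged 4.90 CPM in 2 vector libraries. Among the others it averaged 2.42 CPM in 2 libraries labelled Hmga2 and was at 3.15 CPM in 1 vector library.

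Id2, the Id protein required for natural killer and innate lymphoid cells, was uneven within both groups. It had 5.82, 8.75 and 15.7 CPM in the libraries labelled Hmga2 and 12.3, 5.23 and 6.41 CPM in the vector libraries. The highest values were those of Hmga2 replicate 3 and vector replicate 1, so the groups overlapped. The means were 10.1 ± 5.06 CPM in the libraries labelled Hmga2 and 7.97 ± 3.78 CPM in the vector libraries (SD, n = 3 each). The log2 fold change was 0.34 (edgeR, standard error 0.45, 95% interval -0.71 to 1.39, adjusted p = 0.930). Its sign depended on 1 library, since it was -0.13 without Hmga2 replicate 3, and it was 0.79 without vector replicate 1. Mycn, which encodes the Myc family member N-Myc and was picked out after its values were seen, also had its highest values in these libraries, with 50.8, 58.1 and 108 CPM in the libraries labelled Hmga2 and 119, 27.9 and 32.4 CPM in the vector libraries.

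Id3, which restrains E proteins in lymphocytes, was near the limit of detection. It had 4, 5 and 26 reads in the libraries labelled Hmga2 and 16, 11 and 12 reads in the vector libraries. These are 0.113, 0.163 and 0.758 CPM in the libraries labelled Hmga2, against 0.504, 0.423 and 0.502 CPM in the vector libraries. Hmga2 replicate 3 was the highest of all 6 libraries, and the other libraries with its label were the lowest. Id3 met the minimum of the count filter, 0.325 CPM, in 3 vector libraries and in 1 library labelled Hmga2, so it was tested through its vector values. Its log2 fold change was -0.46 (edgeR, standard error 0.71, 95% interval -2.14 to 1.22, adjusted p = 0.939). Without Hmga2 replicate 3 the value was -1.77, without Hmga2 replicate 1 it was -0.04, and without Hmga2 replicate 2 it was -0.13. A term for Y-linked genes above 100 CPM, chosen after seeing the data, gave -1.53. Hmga2 replicates 1 and 3 were above that level, so this value sets Hmga2 replicate 2 alone, at 5 reads, against the vector libraries. A term for libraries rich in Igha gave -0.70.

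Sums of lymphoid gene lists differed in direction in Hmga2 replicate 3, the library with the highest Id2 and Id3. The first 3 genes below were picked after their values were seen, because they were highest there. Dntt, the template-free DNA polymerase of early lymphoid cells, had 28.9, 19.6 and 91.4 CPM in the libraries labelled Hmga2 and 24.4, 12.1 and 28.3 CPM in the vector libraries. Il7r, the interleukin 7 receptor gene, had 0.848, 0.781 and 4.60 CPM in the libraries labelled Hmga2 and 1.45, 0.769 and 1.09 CPM in the vector libraries. The natural killer cell receptor gene Ncr1 had 0.226, 0.0976 and 1.28 CPM in the libraries labelled Hmga2 and 0.378, 0 and 0.335 CPM in the vector libraries. In contrast, Nkg7, a cytotoxic granule gene and the most abundant of the natural killer and innate lymphoid list, had 174, 177 and 145 CPM in the libraries labelled Hmga2 and 123, 171 and 231 CPM in the vector libraries. The sum of that list, of which Nkg7 made up 145 CPM, was lowest of its label in Hmga2 replicate 3, at 213 CPM. This sum follows its most abundant genes, such as Nkg7 and Il1rl1. Il1rl1 had 34.3, 35.9 and 19.1 CPM in the libraries labelled Hmga2 and 27.6, 41.2 and 34.1 CPM in the vector libraries. It does not give the direction of the less abundant genes of the list, of which Ncr1 was highest there. The sum of B and plasma cell genes was also lowest of its label in Hmga2 replicate 3, at 632 CPM. The T cell list went the other way, with its highest sum of any library there, at 28.9 CPM. Tcf7 of the T cell list was at 7.84 CPM there and at or below 2.65 CPM elsewhere. The part of lymphoid cells in the Id levels was not tested, and in bulk RNA fewer cells of a type and less RNA per cell cannot be told apart.

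Id4, the remaining Id gene, was below the count filter and was not tested. It had 2, 0 and 0 reads in the libraries labelled Hmga2 and 6, 3 and 1 reads in the vector libraries. A count of 0 in Hmga2 replicates 2 and 3 allows levels of up to 0.0976 and 0.0874 CPM, at 3 reads each.

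**Figure D1:**
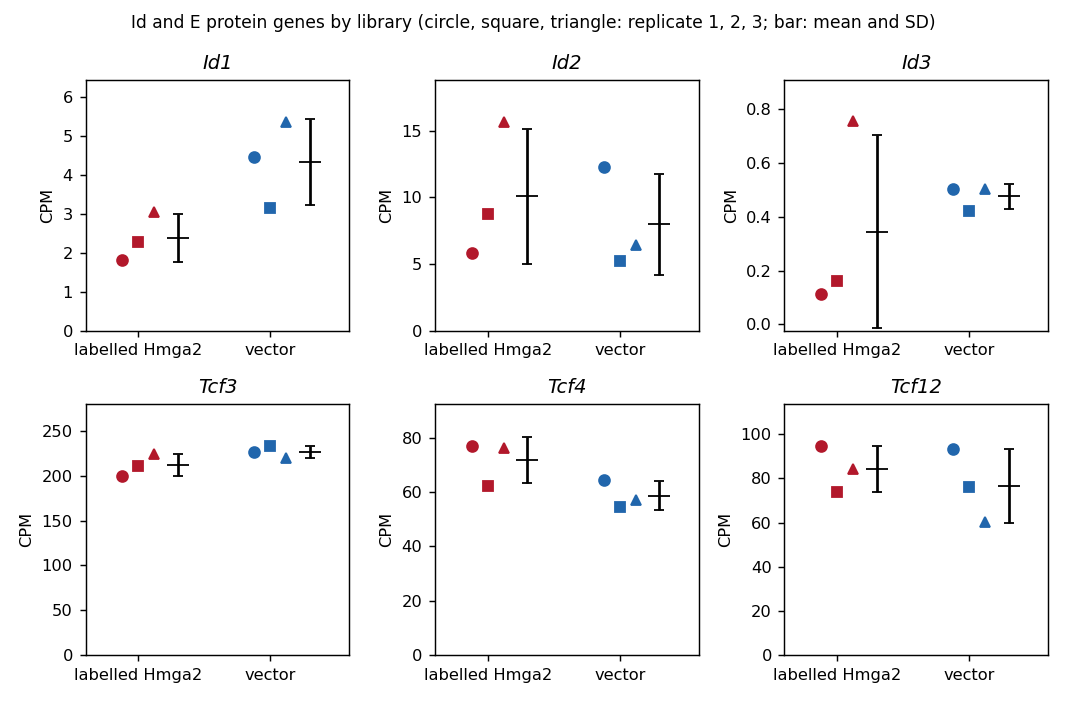
CPM of the 6 genes in each library, labelled Hmga2 on the left in red and vector on the right in blue, with circles, squares and triangles for replicates 1, 2 and 3 and bars for mean and SD. The groups do not overlap for Id1. Hmga2 replicate 3 is the highest library for Id2 and for Id3, and Tcf3 lies between 200.2 and 233 CPM in all 6 libraries.

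Tcf3, which encodes the E2A proteins E12 and E47, varied least. It had 200.2, 211 and 224 CPM in the libraries labelled Hmga2 and 227, 233 and 220 CPM in the vector libraries. The groups overlapped, and the highest library exceeded the lowest by 1.17-fold. The means were 212 ± 12.1 CPM in the libraries labelled Hmga2 and 226 ± 6.86 CPM in the vector libraries (SD, n = 3 each). The log2 fold change was -0.10 (edgeR, standard error 0.07, 95% interval -0.27 to 0.08, adjusted p = 0.865), an interval that spans folds from 0.829 to 1.06.

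Tcf4, which encodes E2-2, the E protein of plasmacytoid dendritic cells, had 77.0, 62.2 and 76.3 CPM in the libraries labelled Hmga2 and 64.5, 54.4 and 57.2 CPM in the vector libraries. Hmga2 replicate 2 lay below vector replicate 1, so the groups overlapped, and the other libraries labelled Hmga2 were above every vector library. The means were 71.9 ± 8.33 CPM in the libraries labelled Hmga2 and 58.7 ± 5.20 CPM in the vector libraries (SD, n = 3 each). The log2 fold change was 0.29 (edgeR, standard error 0.11, 95% interval 0.02 to 0.56, adjusted p = 0.855). Exact two-sided permutation of the labels gave p = 0.2. DESeq2 gave an adjusted p of 0.839.

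Values of Tcf4 by kind of library again include single libraries. Among libraries with Igha above 1000 CPM, Tcf4 was at 62.2 CPM in 1 library labelled Hmga2 and averaged 60.9 CPM in 2 vector libraries. Among the others it averaged 76.7 CPM in 2 libraries labelled Hmga2 and was at 54.4 CPM in 1 vector library. The 2 highest Tcf4 levels were those of the libraries rich in Y-linked transcripts. With the term for Y-linked genes the log2 fold change was 0.08 (edgeR). No vector library had Y-linked genes above 100 CPM, so within such libraries the labels could not be compared. That value therefore sets Hmga2 replicate 2 alone against the vector libraries. Plasmacytoid dendritic cell genes, summed over the 12 listed, had 249.5, 190 and 279 CPM in the libraries labelled Hmga2 and 220, 248 and 246 CPM in the vector libraries. Of the 8 tested, 4 were above and 4 below 0 in log2 fold change, with a median of -0.07, and the most abundant were Irf8, Bst2 and Runx2. Klk1 of this list was at 0 in every library. The defining gene Siglech ran from 0.170 to 0.293 CPM in the libraries labelled Hmga2 and from 0.0769 to 0.126 CPM in the vector libraries. These values are near the limit of detection, as 3 reads correspond to 0.0848 to 0.126 CPM. The part of these cells in the Tcf4 level was not tested.

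Tcf12, which encodes the E protein HEB of T cell development, had 94.7, 73.6 and 84.3 CPM in the libraries labelled Hmga2 and 93.5, 76.0 and 60.2 CPM in the vector libraries. The groups overlapped. The means were 84.2 ± 10.6 CPM in the libraries labelled Hmga2 and 76.5 ± 16.6 CPM in the vector libraries (SD, n = 3 each). The log2 fold change was 0.14 (edgeR, standard error 0.17, 95% interval -0.26 to 0.54, adjusted p = 0.922). Leaving out vector replicate 3 gave -0.0055 and leaving out vector replicate 1 gave 0.31.

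**Figure D2:**
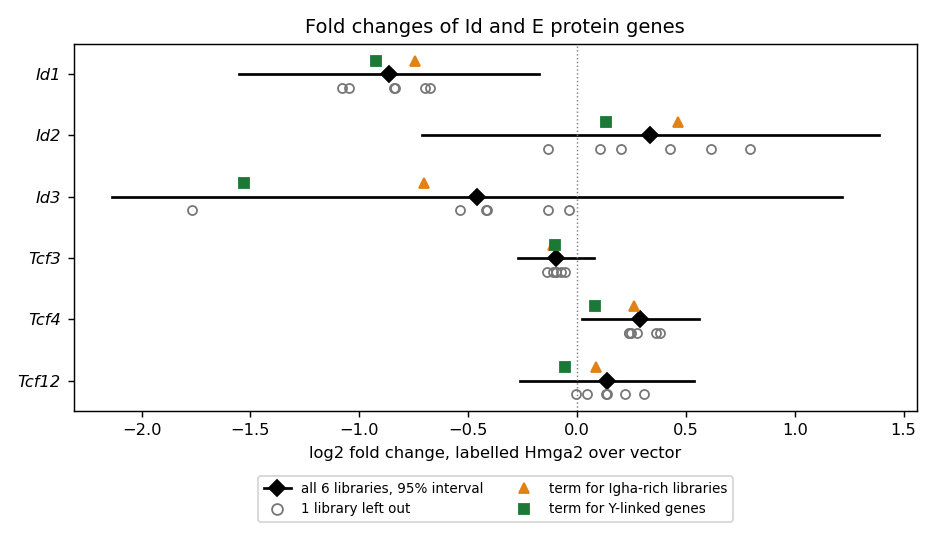
Log2 fold change, labelled Hmga2 over vector, for each gene from edgeR (diamond with its 95% interval), with 1 library left out (open circles) and with a term for libraries rich in Igha (triangle) or in Y-linked transcripts (square). The intervals of Id1 and Tcf4 do not include 0 before adjustment. For Id2, Id3 and Tcf12, single libraries move the value by more than its size. The square sets Hmga2 replicate 2 alone against the vector libraries.

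Per length of transcript, Tcf3 far outweighed all other members, and the place of Id1 and Id2 beside Tcf4 and Tcf12 depended on the length used. CPM per kilobase of merged exons placed Tcf3 first and Id3 last in all 6 libraries. Tcf3 had 49.6, 52.2 and 55.6 CPM per kilobase in the libraries labelled Hmga2 and 56.1, 57.8 and 54.4 in the vector libraries. Tcf12 averaged 5.42 ± 0.680 CPM per kilobase in the libraries labelled Hmga2 and 4.93 ± 1.07 in the vector libraries (SD, n = 3 each, as below). Id2 had 4.14 ± 2.08 CPM per kilobase in the libraries labelled Hmga2 and 3.27 ± 1.55 in the vector libraries. Id1 had 2.04 ± 0.531 CPM per kilobase in the libraries labelled Hmga2 and 3.72 ± 0.956 in the vector libraries. Tcf4 had 2.62 ± 0.304 CPM per kilobase in the libraries labelled Hmga2 and 2.14 ± 0.190 in the vector libraries. Within each label the ranges of neighbours in the order of means between Tcf12 and Id3 overlapped, while Tcf12 lay wholly above Tcf4 under both labels and Id1 lay wholly above Tcf4 in the vector libraries. Id3 averaged 0.192 ± 0.200 CPM per kilobase in the libraries labelled Hmga2 and 0.266 ± 0.0259 in the vector libraries.

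The length used mattered for the E proteins with many transcripts. Merged exons of Tcf4 span 27.4 kb over 62 annotated transcripts and those of Tcf12 span 15.5 kb over 21, against longest transcripts of 8.58 and 6.30 kb. With the longest transcript as length, Tcf4 averaged 8.38 ± 0.971 CPM per kilobase in the libraries labelled Hmga2 and 6.85 ± 0.606 in the vector libraries, and the order Tcf3, Tcf12, Tcf4 stood above all Id genes in all 6 libraries. Which transcripts were present cannot be read from counts per gene.

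The share of Id transcripts in the sum of all 6, each per kilobase of merged exons, was 6.42%, 8.69% and 12.9% in the libraries labelled Hmga2 and 12.4%, 7.31% and 11.1% in the vector libraries. The groups overlapped, with Hmga2 replicate 3 the highest library and Hmga2 replicate 1 the lowest. In other terms, E protein transcripts were 14.6, 10.5 and 6.74 times as abundant as Id transcripts in the libraries labelled Hmga2 and 7.04, 12.7 and 8.01 times as abundant in the vector libraries. Within the Id genes, Id2 made up 59.5%, 63.6% and 67.9% of the level in the libraries labelled Hmga2 and 55.1%, 42.1% and 34.9% in the vector libraries. These groups did not overlap, which restates the Id1 and Id2 values above and was given no test. Tcf3 made up 84.8%, 88.2% and 87.1% of the E protein level in the libraries labelled Hmga2 and 87.0%, 89.4% and 90.1% in the vector libraries. With the longest transcript as length, these Tcf3 shares were lower. They were 73.9%, 79.1% and 77.4% in the libraries labelled Hmga2 and 77.5%, 81.1% and 82.1% in the vector libraries. On that length, E protein transcripts were 8.81 to 19.96 times as abundant as Id transcripts in the libraries labelled Hmga2. In the vector libraries they were 9.48 to 17.1 times as abundant.

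**Figure D3:**
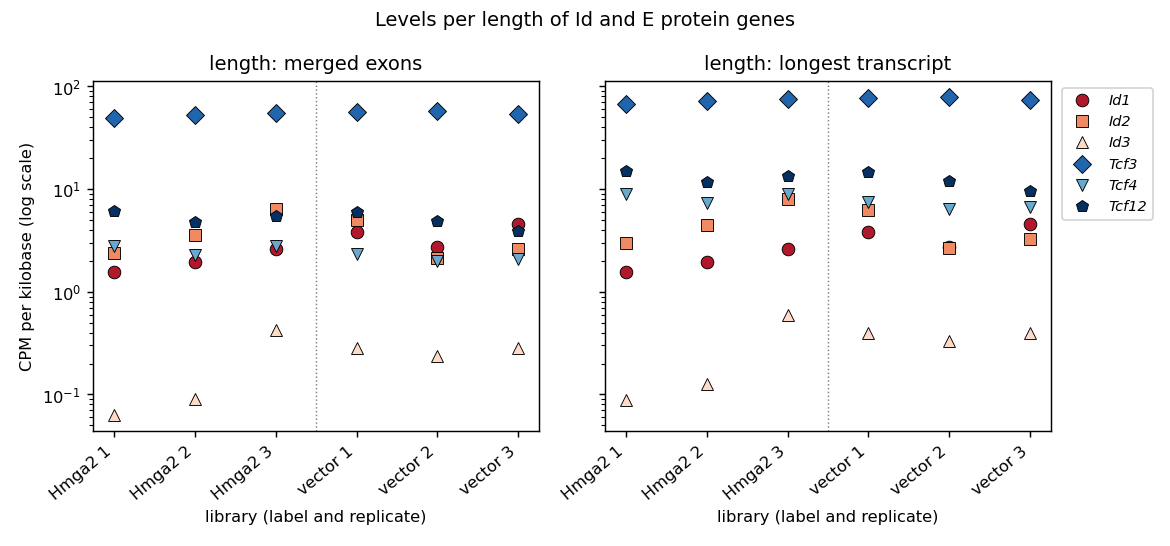
CPM per kilobase on a log scale for the 6 genes in each library, labelled Hmga2 left of the dotted line and vector right of it, with merged exons (left panel) or the longest transcript (right panel) as length. Tcf3 is highest and Id3 lowest in every library, and only with merged exons do Id1 or Id2 lie above Tcf4 or Tcf12 in some libraries.

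Among the 15 pairs of members, no correlation of log2 CPM over the 6 libraries passed adjustment (exact permutation tests, smallest adjusted p = 0.552 for Pearson's r and adjusted p = 0.604 for Spearman's rho). Id3 and Tcf3 had the highest r, 0.83 (exact permutation p = 0.0639), with a rho of 0.60 (exact permutation p = 0.242). This rested on 2 libraries, since r was -0.44 without Hmga2 replicates 1 and 2, the farthest from the median of Id3. Id1 and Id3 had an r of 0.76 (exact permutation p = 0.0833) and a rho of 0.60 (exact permutation p = 0.242), and r was 0.63 without Hmga2 replicate 1 and vector replicate 3. The E protein genes Tcf4 and Tcf12 had an r of 0.69 (exact permutation p = 0.122) and a rho of 0.77 (exact permutation p = 0.103), with r = 0.58 without Hmga2 replicates 1 and 3. Each label holds 3 libraries, too few for a correlation within it.

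For each member, the genes with the most similar profile over the 6 libraries were listed. Among 10228 other genes with a mean of at least 5 CPM, those most like Id2 were Hip1, an endocytic adaptor gene (r = 0.999), the phosphate transporter gene Slc37a1 (r = 0.995) and Pdgfb, the B chain of platelet-derived growth factor (r = 0.994). Hip1 had 22.9, 25.6 and 30.7 CPM in the libraries labelled Hmga2 and 28.3, 22.4 and 23.7 CPM in the vector libraries. These r values are descriptions over 6 libraries, each gene and member sharing the same libraries and depth, and the best of so many genes is high by selection. Among those most like Tcf12 were Rab11fip1, of endosome recycling (r = 0.999), and Mdm1 (r = 0.996). For Tcf4 the closest were Arfip1 (r = 0.991), the kinase gene Bmp2k (r = 0.984) and Rufy3 (r = 0.983). For Tcf3 they were the transcription factor gene Klf2 (r = 0.985), Lrp10 (r = 0.977) and the collagen lysyl hydroxylase gene Plod1 (r = 0.973). The Sry-related factor gene Sox12 (r = 0.985), the kinetochore gene Cenph (r = 0.976) and Yrdc (r = 0.969) were closest to Id1. Those closest to Id3 were Tsr2 (r = 0.993), the brain creatine kinase gene Ckb (r = 0.967) and the actin regulator gene Evl (r = 0.967). Id1 and Id3 were themselves below a mean of 5 CPM, and 10229 genes were compared with each. The Id3 profile rested on 4 to 26 reads per library, so its r values also carry counting error.

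The partners of E proteins had no called difference between the labels. Of 25 listed genes of the Tal1 complex and of tissue-restricted bHLH factors, 15 were tested, 0 passed in edgeR or DESeq2, 2 had an unadjusted p under 0.05 (5.59% of all genes) and 3 had groups that did not overlap (11.2% of all genes). There were 7 above and 8 below 0, with a median log2 fold change of -0.04. The median was 0.05 without Hmga2 replicate 3. It was 0.12 with the term for Y-linked genes, which sets Hmga2 replicate 2 alone against the vector libraries. The corepressor gene Cbfa2t3, whose product ETO2 sits on Tal1 and E protein complexes, had 181, 163 and 166 CPM in the libraries labelled Hmga2 and 138, 136 and 130 CPM in the vector libraries. The groups did not overlap, and the log2 fold change was 0.34 with a standard error of 0.07 (edgeR, adjusted p = 0.855; DESeq2, adjusted p = 0.0876). Bhlha15, a bHLH factor of secretory cells including plasma cells, had 2.26, 2.37 and 1.92 CPM in the libraries labelled Hmga2 and 4.16, 3.54 and 5.23 CPM in the vector libraries (edgeR, log2 fold change -0.98, adjusted p = 0.855). Ssbp2, which stabilises the Ldb1 complex, averaged 72.1 ± 5.26 CPM in the libraries labelled Hmga2 and 63.4 ± 3.58 CPM in the vector libraries, and the stem cell factor gene Gata2 averaged 342 ± 31.5 CPM in the libraries labelled Hmga2 and 293 ± 33.7 CPM in the vector libraries (SD, n = 3 each). Tal1, the partner of E proteins named above, averaged 208 ± 23.0 CPM in the libraries labelled Hmga2 and 202 ± 26.4 CPM in the vector libraries. Its relative Lyl1 averaged 189 ± 13.5 CPM in the libraries labelled Hmga2 and 181 ± 20.3 CPM in the vector libraries. The bridging factor gene Lmo2 averaged 527 ± 6.98 CPM in the libraries labelled Hmga2 and 496 ± 57.4 CPM in the vector libraries.

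Among genes of the BMP and Smad pathway, which acts on the Id genes, none was called, and more had a log2 fold change above 0 than below it. Of 27 listed BMP and Smad genes, 21 were tested, 0 passed in edgeR or DESeq2, 3 had an unadjusted p under 0.05 (5.59% of all genes) and 4 had groups that did not overlap (11.2% of all genes). There were 16 above and 5 below 0 (76.2% above 0, beside 50.4% of all genes), with a median log2 fold change of 0.16. The list mixes ligands, receptors, relays and inhibitors, so these counts do not measure signalling. With a term for Y-linked genes, which sets Hmga2 replicate 2 alone against the vector libraries, 12 were above 0 and the median was 0.07. The Smad genes that relay BMP signals had small differences, with Smad1 at 29.4 ± 2.54 CPM in the libraries labelled Hmga2 and 26.3 ± 2.04 CPM in the vector libraries, and Smad5 at 97.5 ± 5.45 CPM in the libraries labelled Hmga2 and 85.6 ± 10.9 CPM in the vector libraries (SD, n = 3 each). Bmp7, a BMP ligand, had 0.848, 0.813 and 1.31 CPM in the libraries labelled Hmga2 and 2.39, 1.38 and 1.97 CPM in the vector libraries, with no overlap (edgeR, log2 fold change -0.95, adjusted p = 0.855). The type II receptor gene Bmpr2 ran from 18.2 to 22.6 CPM in the libraries labelled Hmga2 and from 13.2 to 19.3 CPM in the vector libraries (edgeR, adjusted p = 0.855). Smad3 and Tgfbr2, of the TGF-beta branch, had log2 fold changes of 0.39 and 0.30 (edgeR, adjusted p = 0.855 for each).

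Genes that E proteins activate in lymphoid priming showed no shared direction that held without 1 library. Of 30 listed, 24 were tested, 0 passed in edgeR or DESeq2, and 0 had an unadjusted p under 0.05 in edgeR (5.59% of all genes). Groups did not overlap for 0 of the 24 (11.2% of all genes). There were 16 above and 8 below 0 with a median log2 fold change of 0.09, but without Hmga2 replicate 3 there were 9 above and 15 below with a median of -0.04. With a term for Y-linked genes, which sets Hmga2 replicate 2 alone against the vector libraries, 7 were above 0 and the median was -0.31. Satb1, a chromatin organiser of lymphoid progenitors, had 70.1, 33.0 and 62.4 CPM in the libraries labelled Hmga2 and 24.3, 46.6 and 31.7 CPM in the vector libraries. Flt3, the receptor that marks lymphoid-primed progenitors, had 130, 85.6 and 147 CPM in the libraries labelled Hmga2 and 91.9, 97.0 and 89.6 CPM in the vector libraries. Pou2af1, a B cell coactivator gene, had 1.07, 5.30 and 0.437 CPM in the libraries labelled Hmga2 and 22.2, 0.577 and 17.2 CPM in the vector libraries, highest in the 3 libraries rich in Igha. The chemokine receptor gene Ccr9 averaged 0.205 ± 0.112 CPM in the libraries labelled Hmga2 and 0.640 ± 0.466 CPM in the vector libraries (SD, n = 3 each).

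Of 23 other helix-loop-helix genes listed, such as the Hes, Mxd and Myc families, 19 were tested. Of these, 0 passed in edgeR or DESeq2, and 0 had an unadjusted p under 0.05 in edgeR (5.59% of all genes). Groups did not overlap for 1 of the 19 (11.2% of all genes). There were 10 above and 9 below 0, with a median of 0.02, which was -0.07 without Hmga2 replicate 3. Mlx, a partner of the Mondo factors, averaged 31.9 ± 1.56 CPM in the libraries labelled Hmga2 and 38.0 ± 4.39 CPM in the vector libraries (SD, n = 3 each). The circadian repressor gene Bhlhe41 averaged 0.359 ± 0.0587 CPM in the libraries labelled Hmga2 and 0.755 ± 0.489 CPM in the vector libraries. Srebf2, of sterol synthesis, averaged 195 ± 3.78 CPM in the libraries labelled Hmga2 and 165 ± 34.4 CPM in the vector libraries. The Max partner gene Mxd4 averaged 100.5 ± 15.6 CPM in the libraries labelled Hmga2 and 87.3 ± 4.41 CPM in the vector libraries.

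**Figure D4:**
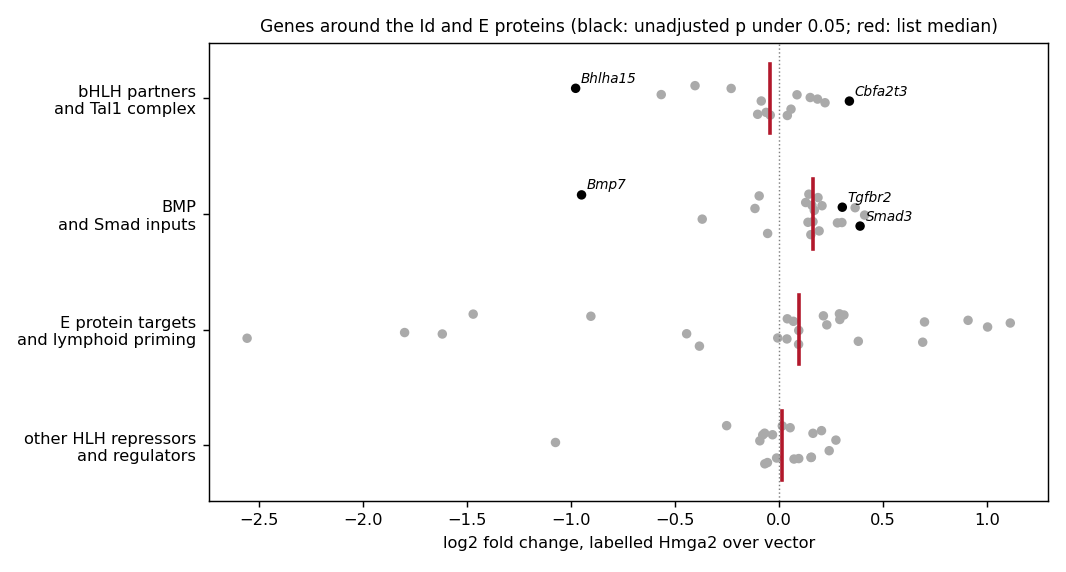
Log2 fold change, labelled Hmga2 over vector, of every tested gene in 4 lists around the Id and E proteins, each point a gene, black where the unadjusted edgeR p was under 0.05, with the list median in red. The medians are -0.04, 0.16, 0.09 and 0.02 from top to bottom, and the black points are Bhlha15 and Cbfa2t3 in the first list and Bmp7, Tgfbr2 and Smad3 in the second.

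Markers of other cells that use these genes were set beside the members as summed CPM of each list. Genes of natural killer and innate lymphoid cells, which depend on Id2, ran from 213 to 260 CPM in the libraries labelled Hmga2 and from 204 to 306 CPM in the vector libraries, led by Nkg7, Il1rl1 and Zbtb16. Endothelial genes, a setting of high Id1 and Id3, ran from 213 to 258 CPM in the libraries labelled Hmga2. In the vector libraries they ran from 187 to 223 CPM. They were led by Pecam1, Egfl7 and Esam, with Sox17 at 0 in every library. Cdh5 of this list ran only from 0.065 to 0.466 CPM in the libraries labelled Hmga2 and from 0.0769 to 0.536 CPM in the vector libraries. T cell genes, where Tcf12 acts, ran from 14.1 to 28.9 CPM in the libraries labelled Hmga2 and from 10.8 to 17.3 CPM in the vector libraries, led by Lck, Tcf7 and Lef1. The T cell receptor component Cd3e was at 0 in every library labelled Hmga2 and at or below 0.0419 CPM in the vector libraries.

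B and plasma cell genes, led by Igha, Igkc and Ighm, ran from 632 to 4585 CPM in the libraries labelled Hmga2 and from 812 to 13800 CPM in the vector libraries. Granulocyte genes, led by Mpo, Prtn3 and Ctsg, ran from 3014 to 4893 CPM in the libraries labelled Hmga2 and from 4439 to 9423 CPM in the vector libraries, and 12 of 12 were below 0 in log2 fold change, where 50.4% of all genes were above 0. DESeq2 called 4 of the 12 granulocyte genes, beside 0.324% of all genes, and edgeR called 0. Erythroid genes, led by Car2, Car1 and Hbb-bs, ran from 1154 to 1607 CPM in the libraries labelled Hmga2 and from 1576 to 1988 CPM in the vector libraries, and DESeq2 called 3 of the 12, beside 0.324% of all genes. Megakaryocyte genes, led by Itga2b, Selp and Pf4, ran from 806 to 1039 CPM in the libraries labelled Hmga2 and from 652 to 1082 CPM in the vector libraries, and 10 of 10 were above 0 in log2 fold change. Genes of the LSK fraction, led by Cd34, Kit and Meis1, ran from 1653 to 1681 CPM in the libraries labelled Hmga2 and from 1290 to 1528 CPM in the vector libraries. Mast cell and basophil genes ran from 484 to 858 CPM in the libraries labelled Hmga2 and from 582 to 704 CPM in the vector libraries, led by Gata2, Cpa3 and Mcpt8. Stroma genes, led by Pdgfrb, Sparc and Col1a2, ran from 57.7 to 82.1 CPM in the libraries labelled Hmga2. In the vector libraries they ran from 59.0 to 79.0 CPM. Most of each sum was Pdgfrb, at 47.0 to 68.6 CPM in the libraries labelled Hmga2 and 41.2 to 64.2 CPM in the vector libraries. Sparc ran from 1.13 to 2.70 CPM in the libraries labelled Hmga2 and from 5.69 to 13.9 CPM in the vector libraries, while the ranges of Col1a2 overlapped. Of the 13 stroma genes listed, 7 were tested, with 4 above and 3 below 0 in log2 fold change. DESeq2 called 2 of these, beside 0.324% of all genes, and edgeR called 0. The part of these cells in the levels of the 6 members was not tested.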

How the data were processed

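RNA of sorted LSK cells was sequenced in 6 libraries, grouped by their titles. The authors deposited expected counts for each gene symbol, a unit read from the values, of which 67.3% to 70.1% of those above 0 were whole within 1e-06. The authors worked with Bowtie2 and Partek 3.0 on mm10, per the submitters' processing notes. Counter, annotation and strandedness: not given in the sources used here. Libraries held 24818011 to 35471806 counts. At their sizes after TMM scaling, 23884000 to 35382100, 3 reads correspond to 0.0848 to 0.126 CPM. Counts were rounded and tested in edgeR 4.0.16 (R 4.3.3): filterByExpr with a minimum count of 10, TMM, quasi-likelihood F test on label alone, Benjamini-Hochberg over 16739 genes at 0.05. CPM are scaled by TMM. DESeq2 1.42.0 was the other tool. Replicate pairs of each label were compared, and none agreed within sampling noise. The tests were checked on simulated counts. Lengths and coding sequences came from GENCODE M21, on the same build as mm10.

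Members and lists were chosen with earlier results of these data known. Named genes were the members, Id4 and Hmga2, up to 4 genes with the smallest p in each pathway list, up to 3 abundant genes in each marker list, and the 3 profiles closest to each member, without predicted or immunoglobulin genes; 1 of these profiles is not reported here. Ly6a, Mycn, Dntt, Il7r, Ncr1, Siglech, Klk1, Sox17, Cdh5, Cd3e, Tal1, Lyl1, Lmo2, Smad1 and Smad5 fall outside this rule. They were named after their values were seen. The alternatives comprised leaving out each library, blocking on replicate number, DESeq2's size factors within edgeR, DESeq2 itself, omission of the count filter, robust dispersion, removal of immunoglobulin genes, and a term for Igha above 1000 CPM; the term for Y-linked genes above 100 CPM was added after seeing the data.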

Additional observations from a re-analysis of the deposited data

How the results depend on the processing

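None of the 6 genes was called under any alternative run. Over all genes edgeR called 0, against 1 without the count filter and 67 with DESeq2; the cause was not tested. With 1 library left out the log2 fold change ran from -1.08 to -0.67 for Id1, from -0.13 to 0.79 for Id2, from -1.77 to -0.04 for Id3, from -0.14 to -0.06 for Tcf3, from 0.24 to 0.38 for Tcf4 and from -0.0055 to 0.31 for Tcf12, and the counts of genes and of members called were 0 each time. Signs reversed for Id2 without Hmga2 replicate 3 (-0.13), for Tcf12 without vector replicate 3 (-0.0055), and for Tcf12 once Y-linked genes were a term (-0.057); the cause was not tested. Over all alternatives the lowest adjusted p was 0.443 for Id1 and 0.424 for Tcf4, each without vector replicate 1. Replicate numbers did not pair the libraries, since the deviations of same-numbered libraries correlated at -0.21, -0.50 and -0.26. With the number as a replicate block 0 genes and 0 members were called, and Id3 was at -0.85. The term for Y-linked genes planned at 1 CPM could not be fitted, as all libraries were above it. Depth limits Id3 and Id4 most, at 26 reads or fewer per library.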
